A study of Mus musculus with 6 samples.

Results

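Reg1, Reg2, Reg3a, Reg3b, Reg3g, Reg4 and Retnlb, secreted proteins of the gut and pancreas, were taken by symbol as 7 of the 38561 genes in the count tables, by a rule that uses no measured value, although the set was drawn up with earlier results of these data known. RNA of small intestinal mucosa from C57BL/6J mice aged 8 to 12 weeks was sequenced as 3 pools labelled Rbm47-IKO and 3 pools labelled wt, each of 3 mice of both sexes according to the labels. In Rbm47-IKO mice the RNA-binding protein gene Rbm47 is deleted by Cre recombinase under the Villin promoter, which acts across the intestinal epithelium and leaves stromal and immune cells untouched. The study's methods describe the controls as floxed mice, whereas the labels call them wild type, and no other allele or treatment is named for either group. The comparison was designed to ask which mucosal genes differ when Rbm47 is deleted from the epithelium. Because each library is a pool, the p-values measure the spread between pools and not between single mice.

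Reg proteins are small secreted proteins with a C-type lectin fold. Reg3g and Reg3b are made by enterocytes and Paneth cells and help to keep bacteria away from the villus surface, and they are known to be induced by microbial signals through Myd88 and by interleukin 22 through Stat3. Reg1 and Reg2 are best known from the pancreas, Reg4 is found in enteroendocrine and other secretory cells, and Retnlb is a resistin-like protein of goblet cells that rises in helminth infection and is more abundant in the colon than in the small intestine.

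Rbm47, the gene that the labels name as knocked out, went against them. In CPM (counts scaled to the same total per library, normalised by the TMM method), it stood at 602.7, 624.6 and 619.8 in the 3 pools labelled Rbm47-IKO, above the 459.8, 449.9 and 472.1 of the wt pools. Its log2 fold change, given throughout as labelled Rbm47-IKO minus wt, was 0.42 (SE 0.10, edgeR adjusted p = 0.0751). Since the gene named as deleted was not lower, the groups are called by their labels only and no direction below is read as an effect of the deletion. Total counts were 31560320 to 38951830 per library. Smooth muscle markers stood high in Rbm47-IKO pool 3 (summed CPM 3302) and wt pool 2 (2803) against 90.7 to 586 in the other pools, so the fits below were also run without this pair of pools, which was decided once the data had been seen. Epithelial markers of the small intestine were abundant in every library, with summed enterocyte markers of 57830 to 72321 CPM, and of the colon markers Car1 and Hoxd13 had no count in any library, Aqp8 and Ang5 stayed below 0.1 CPM, and Slc26a3, Muc4 and Hoxb13 were among those detected.

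Of the 7 genes, 5 lie in 1 cluster on chromosome 6 (GRCm38), in the order Reg3b (chr6:78370885-78373466, plus strand), Reg3a (chr6:78380709-78383839, plus), Reg2 (chr6:78405155-78408097, plus), Reg1 (chr6:78425983-78428666, plus) and Reg3g (chr6:78466269-78468872, minus). Reg3d, which is not among the 7, lies between Reg3b and Reg3a on the minus strand. Reg4 (chr3:98222156-98236748, plus) and Retnlb (chr16:48816856-48818891, plus) lie alone on chromosomes 3 and 16. All 7 are annotated as protein-coding and overlap no other gene. The 250 bases before the RefSeq start (GRCm38.p6) are printed 5′ to 3′ on the gene's own strand for Reg3b and Reg3g, whose levels were lower in every Rbm47-IKO-labelled library, and for Reg3a and Reg4, whose levels were higher in every one. Capitals mark each TATAAA (the TATA box letters) and each TTCNNNGAA (the letters of a Stat site), searched on both strands.
Reg3b, chr6:78370635-78370884, plus strand: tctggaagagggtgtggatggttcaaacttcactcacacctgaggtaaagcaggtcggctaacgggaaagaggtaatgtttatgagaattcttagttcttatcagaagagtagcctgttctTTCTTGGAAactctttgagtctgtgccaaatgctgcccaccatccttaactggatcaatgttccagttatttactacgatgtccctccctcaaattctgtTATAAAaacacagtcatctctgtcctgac
Reg3g, chr6:78468875-78469124, minus strand: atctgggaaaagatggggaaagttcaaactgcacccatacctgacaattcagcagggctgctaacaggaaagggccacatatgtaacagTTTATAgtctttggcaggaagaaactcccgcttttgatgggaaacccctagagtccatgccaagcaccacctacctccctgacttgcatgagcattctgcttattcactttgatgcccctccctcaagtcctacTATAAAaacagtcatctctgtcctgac
Reg3a, chr6:78380459-78380708, plus strand: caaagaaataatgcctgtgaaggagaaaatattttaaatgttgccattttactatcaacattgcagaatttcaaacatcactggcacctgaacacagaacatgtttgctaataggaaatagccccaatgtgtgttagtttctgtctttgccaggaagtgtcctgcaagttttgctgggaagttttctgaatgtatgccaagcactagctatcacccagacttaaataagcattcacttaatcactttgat
Reg4, chr3:98221906-98222155, plus strand: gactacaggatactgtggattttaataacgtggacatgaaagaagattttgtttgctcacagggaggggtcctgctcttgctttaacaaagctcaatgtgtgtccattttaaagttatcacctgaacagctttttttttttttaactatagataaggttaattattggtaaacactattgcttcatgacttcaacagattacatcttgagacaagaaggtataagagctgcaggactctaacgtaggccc

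The promoters of Reg3b and Reg3g shared the most bases of any pair among these genes. They had 173 identical bases, 69.2% of the 250, in an alignment of 247, and Reg1 and Reg2 came next with 150. Over aligned bases alone Reg3a and Reg3g were higher, at 71.9% of 199 against 70.0%. Reg3b and Reg3g ended in the same 20 bases, acagtcatctctgtcctgac, next to the start. TATAAA began 29 bases before the start in Reg3b and 27 before it in Reg3g, where its reverse complement was also found at 161. It began at 30 in Reg1 and in Reg2 and was not found in the windows of Reg3a and Reg4. TTCNNNGAA was found in the window of Reg3b, at 129, and in none of those of Reg1, Reg2, Reg3a, Reg3g and Reg4. Of 32817 promoters of the same length in the table, 12.4% held TATAAA and 7.01% held TTCNNNGAA. These letters are a description of the windows and no evidence of binding. Promoters were matched by symbol in the RefSeq table for 6 of the 7 genes, and that of Retnlb was not used here.

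By share of the longer coding sequence, the closest of the 7 genes were Reg1 with Reg2, and Reg3a, Reg3b and Reg3g with each other. Reg3b and Reg3g matched at 76.0% of the bases of the longer sequence, Reg3a and Reg3b at 74.3%, Reg3a and Reg3g at 72.8%, and Reg1 and Reg2 at 78.8%. Reg1 and Reg2 matched Reg3a, Reg3b and Reg3g at 57.1% to 61.9%. Reg4 was little below this, matching the other Reg genes of the 7 at 50.9% to 56.8%. The shorter Retnlb, of 315 coding bases, matched the 6 Reg genes at 38.5% to 41.8%. Over aligned bases alone Retnlb matched them at 65.9% to 73.7%. On that measure Reg1 matched Reg4 at 65.2%, and Reg3a, Reg3b and Reg3g at 63.4% to 66.0%. It thus did not set the resistin-like Retnlb apart from the Reg genes and is no sign of kinship. No genes outside these families were aligned for comparison. No stretch of 50 bases in a transcript of Reg3a, Reg3b, Reg3g, Reg4 or Retnlb occurred in another gene's transcripts. In Reg1 and Reg2, 3.65% and 4.34% of such stretches did, in each case in genes outside the Reg family.

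Reg3b and Reg3g were the most abundant of the 7 in every library and stood lower in all 3 Rbm47-IKO-labelled libraries, by 1.87-fold and 2.44-fold in the group means. Reg3a and Reg4 stood higher in all 3, by 2.59-fold and 2.5-fold, and Reg1 and Retnlb varied too much between pools for a direction. Reg3g fell and Reg4 rose in the edgeR test, with p adjusted over all genes (threshold 0.05). The 6 genes that passed the expression filter were read from the fit of all 16425. Of those 16425 genes 238 (1.45%) rose and 205 (1.25%) fell, against 1 and 1 of the 6. The pools of the groups did not overlap for 4 of the 6 genes, 2 higher and 2 lower, against 11.7% of all genes tested for higher and 11.6% for lower. At an unadjusted edgeR p under 0.05 stood 4 of the 6, against 16.8% of all genes tested, and DESeq2 called 4 of the 6, against 7.57%. These shares over all genes also stand behind the counts of the lists below. The median log2 fold change of the 6 was 1.07, beside -0.00586 over all genes tested, with 4 fitted higher and 2 lower. Reg2 did not pass the filter.

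**Figure D1:**
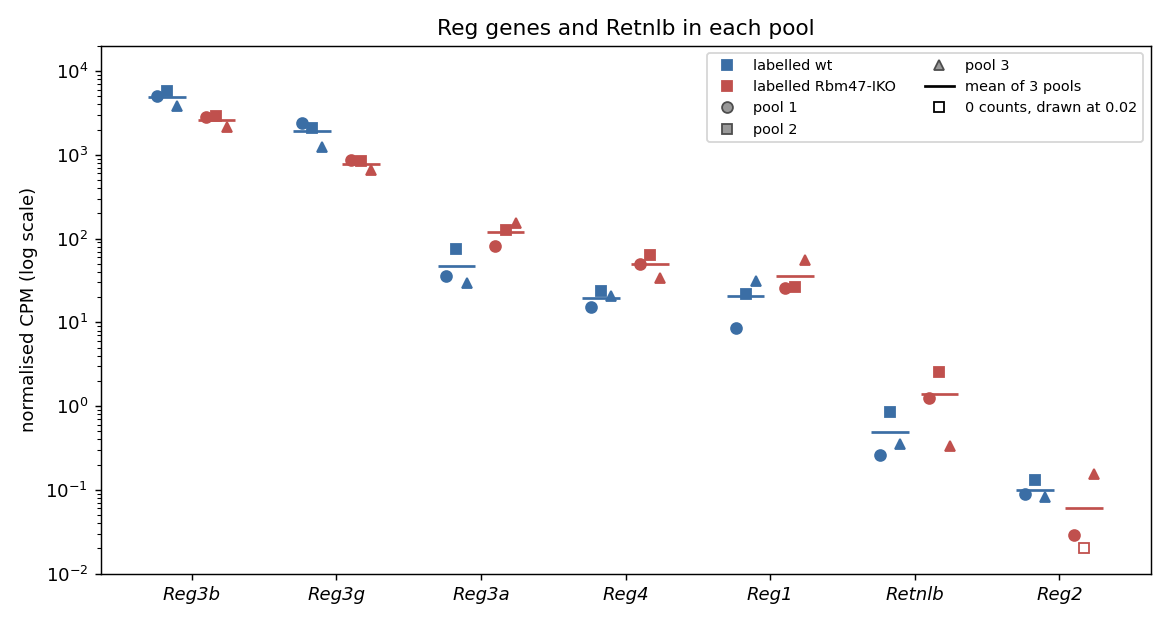
Normalised CPM (log axis) of the 7 genes in each pool, in blue for labelled wt and red for labelled Rbm47-IKO, with the pool number as the symbol and the mean of 3 pools as a line. All red points lie below the blue for Reg3b and Reg3g and above them for Reg3a and Reg4, the colours mix for Reg1 and Retnlb, and the Reg2 count of 0 in Rbm47-IKO pool 2 is drawn as an open symbol at 0.02.

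Reg3g (ENSMUSG00000030017), the lectin that kills Gram-positive bacteria by binding their peptidoglycan, had 863.9, 841.4 and 660.7 CPM in the Rbm47-IKO-labelled libraries and 2410, 2109 and 1255 CPM in those labelled wt. The wt pools covered a wider range, and the lowest of them, pool 3, still lay above every Rbm47-IKO-labelled library. The means were 789 ± 111 (SD, n = 3) and 1925 ± 599 (SD, n = 3). The log2 fold change was -1.29 (SE 0.25, 95% interval -1.86 to -0.71, edgeR adjusted p = 0.0427), at rank 375 of the tested genes by p. In rank of abundance among all genes Reg3g stood at 37, 50 and 100 in the wt pools and at 140, 149 and 173 in the others. The call was lost when any single pool was left out, with log2 fold changes of -1.51 to -1.09 and edgeR adjusted p of 0.0504 (without wt pool 3) to 0.206 (without Rbm47-IKO pool 2), and without the pair of pools high in muscle (-1.11, adjusted p = 0.0962). In bulk RNA, fewer cells that make a transcript and less transcript per cell cannot be told apart, and this holds for every gene here.

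Reg3b (ENSMUSG00000071356), its relative that acts on Gram-negative bacteria, was the most abundant of the 7. Its counts were 97913, 109280 and 70831 in the Rbm47-IKO-labelled libraries and 173845, 220098 and 138528 in those labelled wt. These were 2828, 2885 and 2169 CPM against 5113, 5799 and 3801 CPM. As for Reg3g, pool 3 was the lowest of each group, and no wt pool reached down to the other group. The means were 2628 ± 398 (SD, n = 3) and 4904 ± 1015 (SD, n = 3), and the share of all counts was 0.224% to 0.281% against 0.364% to 0.592%. Reg3b's log2 fold change of -0.90 (SE 0.20, 95% interval -1.37 to -0.43) did not pass the threshold (edgeR adjusted p = 0.0639). It passed with the filter set at a CPM above 1 in 3 libraries (0.0456), with the robust edgeR fit (0.0466) and with DESeq2 (7.19e-05), and the adjusted p of the alternatives reached 0.237 without Rbm47-IKO pool 2.

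Reg3a (ENSMUSG00000079516), another member of the same subfamily, stood on the other side, with higher levels. It had 81.0, 126.8 and 154.0 CPM in the Rbm47-IKO-labelled libraries and 35.7, 74.6 and 29.4 CPM in those labelled wt. The lowest pool labelled Rbm47-IKO and the highest wt pool, pool 2, were close, and the groups did not overlap. The means were 120.6 ± 36.9 (SD, n = 3) and 46.6 ± 24.4 (SD, n = 3). For Reg3a, a log2 fold change of 1.37 (SE 0.38, 95% interval 0.50 to 2.25) did not pass the threshold (edgeR adjusted p = 0.11). It passed with DESeq2 (adjusted p = 0.000886), without wt pool 2 (1.89, edgeR adjusted p = 0.0237) and without the pair of pools high in muscle (1.67, 0.0199), and the adjusted p of the alternatives reached 0.349 without Rbm47-IKO pool 2.

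Reg4 (ENSMUSG00000027876), which lies outside the cluster, had 49.6, 64.1 and 34.3 CPM in the Rbm47-IKO-labelled libraries and 15.3, 23.5 and 20.4 CPM in those labelled wt. Every library labelled Rbm47-IKO was above every wt library, with Rbm47-IKO pool 3 the nearest to them. The means were 49.3 ± 14.9 (SD, n = 3) and 19.7 ± 4.12 (SD, n = 3). The log2 fold change was 1.32 (SE 0.25, 95% interval 0.74 to 1.90, edgeR adjusted p = 0.0393), at rank 346 by p. The call held without Rbm47-IKO pool 3 (edgeR adjusted p = 0.0371), without wt pool 2 (0.0452) and without both (0.0137). It was lost without Rbm47-IKO pool 1 (0.145), Rbm47-IKO pool 2 (0.183), wt pool 1 (0.0826) and wt pool 3 (0.138), with log2 fold changes of 1.09 to 1.53 over the 6 fits that left out a single pool.

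Reg1 (ENSMUSG00000059654), a product of pancreatic acinar cells that is also made in the intestine, had 25.8, 26.4 and 56.3 CPM in the Rbm47-IKO-labelled libraries and 8.59, 22.0 and 31.2 CPM in those labelled wt. Rbm47-IKO pool 3 was the highest of all, wt pool 3 lay above the other Rbm47-IKO-labelled libraries, and the groups overlapped. The log2 fold change was 0.81 (SE 0.48, 95% interval -0.30 to 1.92, edgeR adjusted p = 0.465). It was 0.34 without Rbm47-IKO pool 3, 0.44 without wt pool 1 and 1.24 without wt pool 3, and the adjusted p of the alternatives ran from 0.171 to 0.776. Rbm47-IKO pool 3 also held the most pancreatic acinar RNA. The summed acinar markers were 26.9 CPM there and 2.44 to 3.85 CPM in the other libraries, with Ctrb1 (chymotrypsinogen B) at 6.83 CPM against at most 0.147 and Amy2a5 at 0 in all 6. Cela1, an elastase gene and the most abundant of them on average, had 2.51, 3.17 and 3.77 CPM against 2.62, 2.53 and 1.95 CPM (edgeR adjusted p = 0.493). Of the 10 acinar markers 2 passed the filter and 0 were called by edgeR or DESeq2 or had an unadjusted p under 0.05, and the part of pancreatic RNA in the Reg1 level was not tested.

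Retnlb (ENSMUSG00000022650) was scarce, with counts of 43, 98 and 11 in the Rbm47-IKO-labelled libraries and 9, 32 and 13 in those labelled wt. These were 1.24, 2.59 and 0.337 CPM against 0.265, 0.843 and 0.357 CPM, and the groups overlapped because Rbm47-IKO pool 3 was as low as the wt pools. The log2 fold change was 1.5 (SE 0.74, 95% interval -0.23 to 3.23, edgeR adjusted p = 0.37). It was 0.69 without Rbm47-IKO pool 2, 2.15 without wt pool 2 and 2.60 without the pair of pools high in muscle (edgeR adjusted p = 0.052, against up to 0.89 over the alternatives).

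Reg2 (ENSMUSG00000023140) had counts of 1, 0 and 5 in the Rbm47-IKO-labelled libraries and 3, 5 and 3 in those labelled wt. All are near the floor of 3 counts taken as told from none (0.077 to 0.0951 CPM at these depths, for counting error only), so no fold is given. The other resistin genes Retnla and Retnlg did not pass the filter, and Retn had 0.0289 to 2.11 CPM with overlapping groups (edgeR adjusted p = 0.743). Reg3d, the neighbour of Reg3b in the cluster, had counts of 35, 17 and 31 against 31, 48 and 38, with overlapping groups, and was fitted at -0.42 on the log2 scale (SE 0.39, edgeR adjusted p = 0.681).

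**Figure D2:**
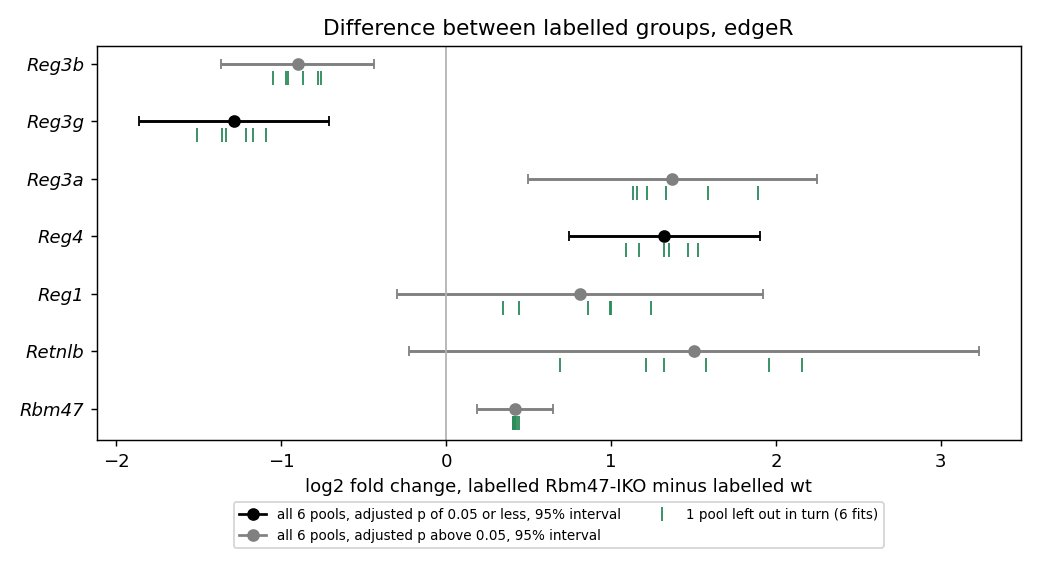
Log2 fold change, labelled Rbm47-IKO minus labelled wt, of the 6 tested genes and Rbm47 with its 95% interval from the edgeR fit of all 6 pools (black for an adjusted p of 0.05 or less, grey above it), and green ticks for the 6 fits that each leave out 1 pool. The intervals of Reg3b, Reg3g, Reg3a and Reg4 lie on 1 side of 0, those of Reg1 and Retnlb cross it, and no tick crosses 0.

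The genes of the cluster did not share a direction. Reg3b and Reg3g, at opposite ends and on opposite strands, had log2 fold changes of -0.90 and -1.29. Reg3a, which lies next to Reg3d near the Reg3b end, had 1.37, and its 95% interval of 0.50 to 2.25 did not reach those of the former (-1.37 to -0.43 for Reg3b and -1.86 to -0.71 for Reg3g). The difference between genes was not itself tested.

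**Figure D3:**
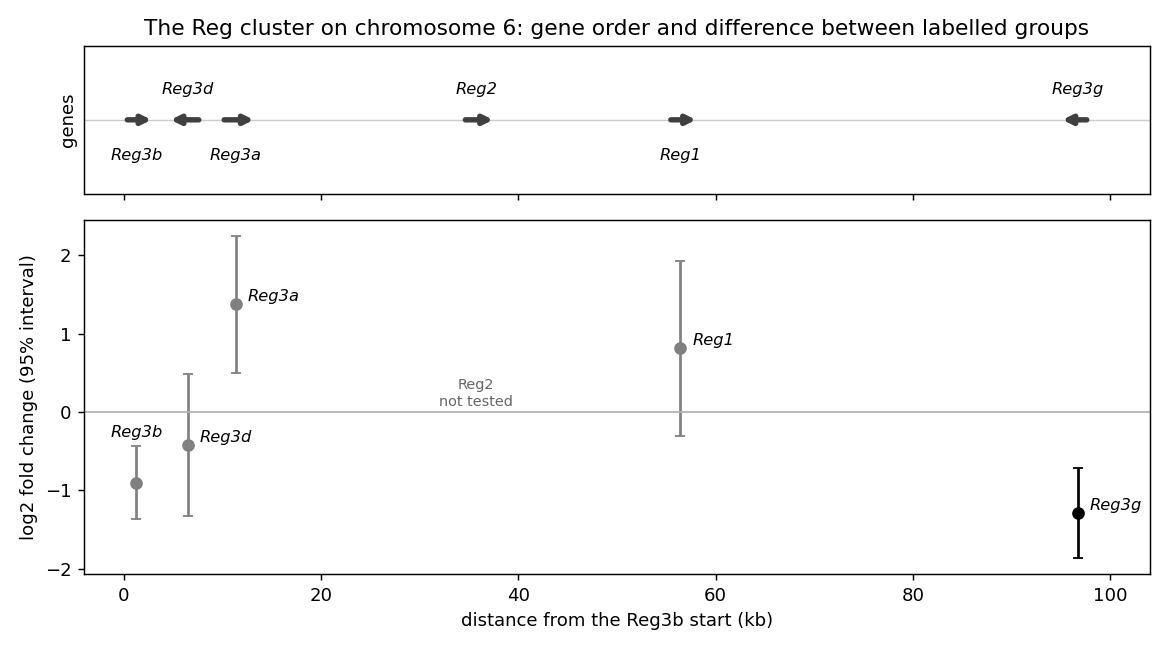
The Reg cluster drawn to scale by distance in kb from the Reg3b start, with arrows for the strand above and the log2 fold change (labelled Rbm47-IKO minus labelled wt, 95% interval, black for an edgeR adjusted p of 0.05 or less) below. Reg3b at the left end and Reg3g at the right end lie below 0, Reg3a and Reg1 between them lie above it, and Reg2 was not tested.

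The make-up of the family was compared within each library as CPM per kb of mRNA. The tables give Reg3g a length of 2114 bases, which includes a transcript with a retained intron, so the protein-coding mRNA of 771 bases was used for Reg3g and the same kind of length for the others. Reg3b made up 70.7% to 73.5% of the summed level of the 7 genes in the Rbm47-IKO-labelled libraries and 67.1% to 73.8% in those labelled wt. Reg3g made up 21.7% to 22.8% against 24.7% to 32.1%. Reg3a made up 2.0% to 4.76% against 0.445% to 0.879%, and Reg4 0.856% to 1.25% against 0.154% to 0.304%. The share of Reg3b thus overlapped between the groups, while those of Reg3g, Reg3a and Reg4 did not. The shares of Reg1 (0.682% to 1.87% against 0.115% to 0.616%) and Retnlb (0.0123% to 0.0739% against 0.00391% to 0.0118%) did not overlap either, although their levels did. Reg3b and Reg3g made up most of the sum, so lower levels of these lectins alone raise the shares of the scarcer genes. A higher share is therefore not separate evidence of a higher level.

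Ratios within a library do not depend on its scaling. The per-kb level of Reg3b was 3.22, 3.38 and 3.23 times that of Reg3g in the Rbm47-IKO-labelled libraries and 2.09, 2.71 and 2.98 times in those labelled wt. It was 36.8, 24 and 14.8 times that of Reg3a in the former and 151, 81.9 and 136 times in the latter. The gap between the groups was thus small for the pair of lectins that stood lower together and wide for Reg3b over Reg3a. Summed over the 7 genes, the level was 3850, 3946 and 3075 CPM against 7583, 8029 and 5137 CPM, which is mostly Reg3b and Reg3g. In order of per-kb level, Reg3b stood highest, followed by Reg3g and then Reg3a, in the means of both groups. Reg1 and Reg4 came next and did not differ beyond their spread, at 47.0 ± 22.7 and 48.3 ± 14.6 CPM per kb (SD, n = 3) in the Rbm47-IKO-labelled libraries and 26.8 ± 14.8 and 19.3 ± 4.04 (SD, n = 3) in those labelled wt.

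Likeness of pattern was measured as the root mean square difference of centred log2 CPM over the 6 libraries, where 0 is the same pattern. Reg3b and Reg3g were the closest pair of the 6 tested genes, at 0.235. Reg3a and Reg4 followed at 0.562 and Reg4 and Retnlb at 0.621, and the other pairs lay from 0.761 to 1.48. Among all tested genes of mean CPM 1 or more, Prps1 (0.135) and Gm3336 (0.14) were closest to Reg3b, and Gm3336 (0.226) and Reg3b to Reg3g. Sdc1, the heparan sulfate proteoglycan syndecan 1, was closest to Reg4 at 0.164, at 1.21 in log2 fold change (edgeR adjusted p = 0.0119), followed by Avpi1 at 0.171 (1.27, edgeR adjusted p = 0.0401). Ephx1 (0.163) and Flywch2 (0.208) were closest to Reg3a, Tnfsf15 (0.294) and F5 (0.306) to Reg1, and Gpx2 (0.562) and Duoxa1 (0.589) to Retnlb. These are descriptions over libraries that also share their group difference.

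Lists of cytokine and receptor genes linked to induction of the Reg3 lectins gave no gene called by edgeR. The cytokine list held 8 genes, among them Il22ra2, which is not itself a cytokine. Of these 8 genes 3 passed the filter, with Il22, Il17a, Il17f, Il23a and Il6 below it. EdgeR called 0, 2 (Il18 and Il22ra2) stood at an unadjusted p under 0.05, and DESeq2 called 1 (Il18). Il18, an epithelial cytokine, had 46.6, 57.4 and 53.4 CPM in the Rbm47-IKO-labelled libraries and 32.2, 45.1 and 28.6 CPM in those labelled wt (log2 fold change 0.57, edgeR adjusted p = 0.158). Il22ra2, the soluble protein that binds interleukin 22, had 0.693 to 1.24 CPM against 1.56 to 3.38 CPM (-1.23, edgeR adjusted p = 0.156). The 14 genes of cytokine receptors and Stat3 signalling had a median log2 fold change of 0.0316 and 0 calls by edgeR and by DESeq2, with 2 genes at an unadjusted p under 0.05. Il22ra1, the receptor chain of epithelial cells, had -0.25 (edgeR adjusted p = 0.344) and Stat3 0.0351 (0.945). Socs3, a feedback inhibitor induced by Stat3, had 0.61 (edgeR adjusted p = 0.279), Osmr -0.62 (0.595) and Extl3, a proposed receptor of Reg proteins, 0.42 (0.265).

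A list of 13 other epithelial genes known to respond to interleukin 22 or Stat3 was also read from the fit. Of these 7 passed the filter, and all 7 were fitted higher (under RLE, upper quartile and library size scaling too) with a median log2 fold change of 0.826 (Steap4, at 0.0353, was nearly level). Of the 7, 0 were called by edgeR and by DESeq2, with 1 at an unadjusted p under 0.05. Among the other 6, Lcn2 reached at most 0.448 CPM and Muc1 0.357 CPM in any library. At these low counts Lcn2, Muc1 and S100a9 had a lower mean in the Rbm47-IKO-labelled libraries, and Saa2, Saa3 and S100a8 a higher one. Fut2, a fucosyltransferase of the epithelial surface, had 58.8, 52.4 and 17.9 CPM in the Rbm47-IKO-labelled libraries and 3.56, 14.8 and 12.7 CPM in those labelled wt, without overlap (2.05, edgeR adjusted p = 0.12). Saa1, a serum amyloid A gene, had 4.53 to 9.30 CPM against 0.521 to 6.47 CPM with overlap (1.57, edgeR adjusted p = 0.429). Duox2, an epithelial oxidase, had 1893, 1603 and 612 CPM against 315, 1100 and 1172 CPM with overlap (0.67, edgeR adjusted p = 0.628). Duox2, Steap4, Il22ra1, Stat3 and Extl3 fall outside the rule for named genes, as do Anpep, Fabp2, Lcn2, Muc1, Myd88, Ticam1, Clca1, Lyz1, Chgb, Ctrb1, Amy2a5, Reg3d, Retn, Car1, Hoxd13, Aqp8, Ang5 and Slc26a3, and their choice followed a look at their values. This holds for Saa2, Saa3, S100a8 and S100a9 too.

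Among 15 genes of microbial sensing, edgeR called 1 and DESeq2 3, adding Myd88 and Ticam1. Ripk2, the kinase that signals for Nod1 and Nod2, rose to 11.6, 12.2 and 11.9 CPM from 5.35, 5.40 and 4.06 CPM (log2 fold change 1.27, SE 0.17, edgeR adjusted p = 0.0145). The list had 12 genes fitted higher and 3 lower, with a median of 0.233. Of the 17 type 2 response genes, a programme known to raise Retnlb, 16 were in the tables, 12 passed the filter and 0 were called by edgeR, with a median of -0.0579, 2 genes at an unadjusted p under 0.05 and 1 (Clca1) called by DESeq2. Ang4, a goblet and Paneth cell ribonuclease, had -0.78 (edgeR adjusted p = 0.44), and Sprr2a3, a small proline-rich protein gene of the epithelium, 0.91 (0.541). The cytokines Il4, Il5 and Il13 did not pass the filter.

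Markers of the cells that make these proteins were summed per library. The sums overlapped between the groups for Paneth and tuft cells and did not for goblet and enteroendocrine cells, and their part in the Reg levels was not tested. The 10 Paneth cell markers, secretory products such as Lyz1 and the defensins, summed to 686, 807 and 454 CPM in the Rbm47-IKO-labelled libraries and 1793, 1148 and 400 CPM in those labelled wt. The wt pools thus spanned the whole range, and pool 3 was the lowest of each group, as it was for Reg3b and Reg3g. Of these 10 genes 9 were fitted lower with a median of -0.578 and 0 were called by edgeR or DESeq2 (1 at an unadjusted p under 0.05), with Defa26 at -1.32 (edgeR adjusted p = 0.297) and Defa22 at -1.23 (0.385). In wt pool 3 the Paneth sum lay below that of every Rbm47-IKO-labelled library, while Reg3b and Reg3g were above all of them.

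Goblet cell markers summed to 18169, 21214 and 19639 CPM against 16980, 15965 and 14074 CPM, without overlap. Fcgbp alone made up 67.7% to 74.3% of these sums, and the other 9 markers overlapped, at 4670, 5998 and 5364 CPM against 4893, 5150 and 3701 CPM. Of these 10 genes 9 were fitted higher with a median log2 fold change of 0.267 and 0 were called by edgeR, 3 stood at an unadjusted p under 0.05 and DESeq2 called 2, with Creb3l1 at 0.88 (edgeR adjusted p = 0.0672) and the mucus protein Fcgbp at 0.37 (0.261). Enteroendocrine markers summed to 181, 183 and 168 CPM against 231, 285 and 242 CPM, also without overlap, with or without their most abundant gene Chgb, and opposite to Reg4. Of the 13 tested 12 were fitted lower with a median of -0.602, and 7 had lower pools without overlap, against 11.6% of all genes tested. Ghrl, the gene of ghrelin, fell (-1.44, SE 0.27, edgeR adjusted p = 0.0393), while 8 stood at an unadjusted p under 0.05 and DESeq2 called 4. Tuft cell markers (8 genes, 0 called by edgeR or DESeq2, 0 at an unadjusted p under 0.05) summed to 122 to 196 CPM against 84.1 to 222 CPM. Dclk1, a kinase that marks tuft cells, stood at 0.26 on the log2 fold scale (edgeR adjusted p = 0.772) and Sucnr1, their succinate receptor, -0.55 (0.667).

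**Figure D4:**
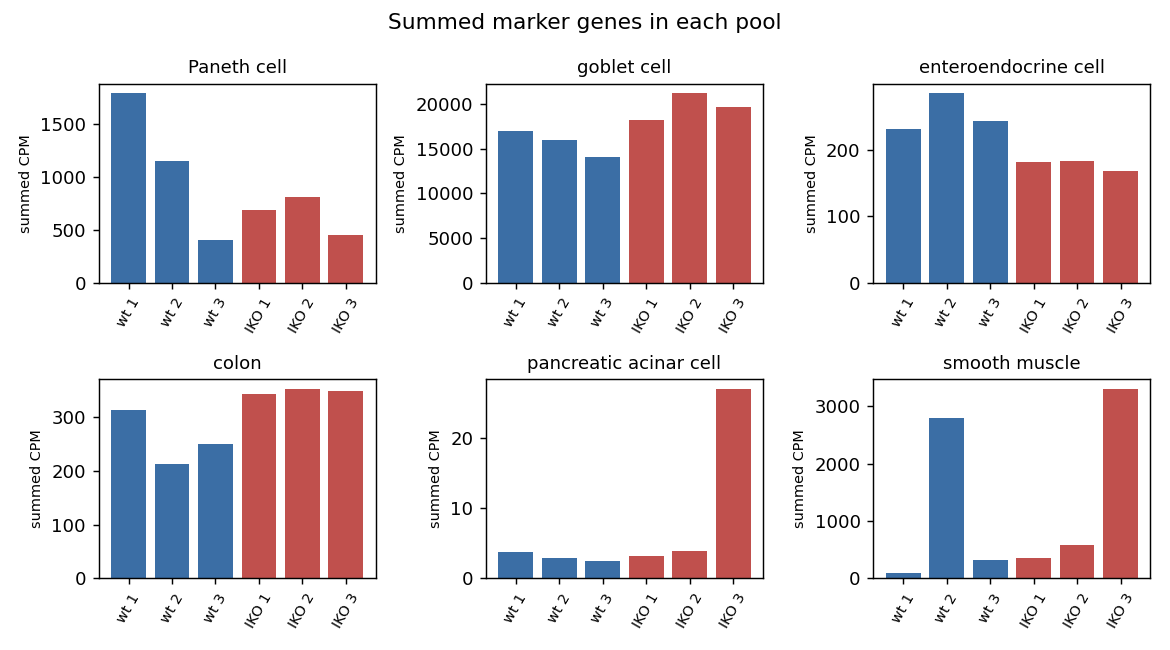
Summed normalised CPM (bars from 0) of marker lists for Paneth, goblet and enteroendocrine cells, colon, pancreatic acinar cells and smooth muscle in the 3 pools labelled wt (blue) and the 3 labelled Rbm47-IKO (red). Goblet sums (resting on Fcgbp) and colon sums are higher in every red bar and enteroendocrine sums lower, Paneth sums overlap, acinar RNA stands out in Rbm47-IKO pool 3, and muscle RNA in that pool and wt pool 2.

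Of the lists of position along the gut, 2 are given by their sums, which did not overlap between the groups for the colon and overlapped for the proximal small intestine. The ileal list is given by its counts only, and the part of position in the Reg levels was not tested. Of the 7 ileal genes, 6 were fitted higher, with a median of 0.617 and 0 called by edgeR, against 2 by DESeq2 and 3 at an unadjusted p under 0.05. Fabp6, the ileal bile acid binding protein, had 31.7, 39.8 and 18.6 CPM in the Rbm47-IKO-labelled libraries and 17.2, 3.98 and 2.55 CPM in those labelled wt (1.93, edgeR adjusted p = 0.201), and Fgf15 had 1.18 (0.394). The 4 tested colon genes were all fitted higher with a median of 0.608 and summed, with those below the filter, to 343 to 352 CPM against 212 to 312 CPM. Of these 4 edgeR called 0 and DESeq2 2 (Hoxb13 and Muc4), the 2 at an unadjusted p under 0.05. Hoxb13 had 2.60, 3.54 and 5.18 CPM against 0, 0.553 and 0.302 CPM (edgeR adjusted p = 0.0708), and the mucin Muc4 had a log2 fold change of 0.97 (0.0518). The 7 proximal genes summed to 5200, 6448 and 6483 CPM against 4415, 5532 and 5934 CPM and had a median of 0.19 and 0 called by edgeR or DESeq2 (2 at an unadjusted p under 0.05), with Onecut2 at -0.53 (edgeR adjusted p = 0.53) and Slc40a1 at 0.45 (0.274).

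Enterocyte markers (10 genes, 0 called by edgeR, 5 at an unadjusted p under 0.05, 4 called by DESeq2) summed to 57830 to 63014 CPM against 65422 to 72321 CPM, without overlap, with 5 genes fitted higher and 5 lower. Apob, the most abundant of them on average over the 6 libraries, set this gap, and the sums of the other 9 overlapped, at 46989 to 52584 CPM against 48330 to 50520 CPM. Apob and Apoa4, lipoprotein genes of enterocytes, had log2 fold changes of -0.87 (edgeR adjusted p = 0.0583) and -1.01 (0.0802). The other 2 that DESeq2 called lay on the opposite side, with Anpep, a brush border peptidase, at 0.52 (edgeR adjusted p = 0.107) and Fabp2, a fatty acid binding protein, at 0.51 (0.178). Among immune markers, T and innate lymphoid cell genes (8 tested) and macrophage and neutrophil genes (7 tested) gave 0 calls each by edgeR and 1 gene each at an unadjusted p under 0.05, and DESeq2 called Lyz2. The 6 smooth muscle genes gave 0 by all of these counts. Lyz2 of macrophages had -0.72 (edgeR adjusted p = 0.162) and Cd68 -0.42 (0.632), and of the lymphoid genes Il7r had -0.81 (0.274) and Gzmb 0.36 (0.638).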

How the data were processed

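RNA pools, of 3 mice each by the labels, were selected with oligo(dT) and sequenced. The paper names the tissue as jejunal mucosa, and by its methods a pool could hold more than 3 mice. According to the submitters' processing notes STAR 2.5.1a, Subread featureCounts 1.4.6-p5 and GRCm38 were used, and the strand setting is not given in the sources used here. The authors deposited, for each library, the raw count of reads on each of 38561 genes. The CPM column deposited by the authors scales that count to the column total, and the RPKM column deposited by the authors divides it further by gene length in kb. Both columns were recomputed from the counts and not used further.

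Counts were analysed with edgeR 4.0.16 in R 4.3.3 (filterByExpr, TMM, quasi-likelihood test, Benjamini-Hochberg adjustment over the 16425 genes tested, threshold 0.05, two-sided), and alternatives with limma 3.58.1 and DESeq2 1.42.0. Symbols and transcripts came from GENCODE M21, and sequences were compared with Biopython 1.88 in Python 3.11.15. The SE was taken as the absolute log2 fold change divided by the square root of the F statistic. Log2 CPM for likeness used a prior count of 2. A single data set was simulated from these libraries with edgeR's own estimates of spread (16104 genes, 200 changed). In it edgeR found 23.5% of genes changed 2-fold and 71.1% of those changed 4-fold, and 7.07% of its calls were unchanged genes.

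The genes and lists were chosen with earlier results of these data known. Named were the 7 genes, Rbm47, called genes of each list (at most 4) or else the 2 genes of mean CPM 1 or more with the largest change, and the 2 genes most alike each tested member, with the exceptions given in the text. Myh11 and Des, which the rule also picks, are given only in the smooth muscle sums. The alternatives were 3 other scalings (RLE, upper quartile, library size alone), DESeq2, limma-voom, a robust fit, 2 other filters, a block on the pool number and leaving out each pool. The summed level of the ileal list is not reported here.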

Additional observations from a re-analysis of the deposited data

How the results depend on the processing

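Of 6 tested Reg and Retnlb genes, 2 were called by edgeR, 4 by DESeq2, and 0 to 2 when each pool was left out in turn. Over all genes the 443 calls became 1243 with DESeq2 and 0 to 431 when each pool was left out. Without Rbm47-IKO pool 2 the count of 0 (edgeR) stood beside 1729 genes below 0.05 in unadjusted p (all pools: 2756). In a single simulated data set with 200 changed genes, 29.7% of DESeq2 calls were unchanged genes, against 7.07% for edgeR. The set was drawn with edgeR's own estimates of spread, and such shares depend on how many genes change. They therefore do not give the false share among the calls made here. Rbm47 was higher at an adjusted p of 0.05 or less with DESeq2 (log2 fold change 0.41, adjusted p = 0.00105) and with edgeR on library size alone (0.41, adjusted p = 0.0473), and its adjusted p ran up to 0.356 over the alternatives. With upper quartile scaling 46.9% of calls were higher, against 53.7% with TMM. No alternative turned the direction of a tested Reg gene or Retnlb, and the CPM filter left Retnlb untested. The cause of these changes was not tested. A block on the pool number gave 0 of 6 and 100 genes in all, with edgeR adjusted p of 0.0618 for Reg3g and 0.066 for Reg4. Whether the numbers pair the pools is not known. Deviations of same-numbered pools correlated at 0.408, -0.00258 and -0.277 across genes, and pools did not each correlate best with their own number. The highest correlation, 0.479, was between Rbm47-IKO pool 3 and wt pool 2, the pair high in muscle. The block lowered the SE of every tested Reg gene and of Retnlb, for Reg1 from 0.48 to 0.25, and raised that of Rbm47 from 0.10 to 0.13. The depth limits statements on Reg2 and Retnlb. With 3 pools a group, a p above the threshold does not show that levels were equal.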
